A study of Capra hircus with 9 samples.

Results

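The whey and minor milk protein genes of the goat mammary gland were followed through the lactation cycle. They were taken by gene symbol: PAEP, GLYCAM1, LPO, LTF, SPP1 and LYZ. Of these 6 symbols, 5 had a row among the 23499 genes of the expression table. LYZ, the symbol of lysozyme, had none, and the RefSeq gene table gives LYZ as a synonym of S-LZ, a gene looked up after the values were seen. S-LZ is described beside the others and is not counted among the 5 genes. The tissue came from 9 healthy Laoshan dairy goats of parity 3, with an average age of 4 years, and each goat gave 1 library. The 3 goats in late lactation (LL) were sampled at day 240 postpartum, the 3 in the dry period (DP) at day 300 postpartum, and the 3 in late gestation (LG) at day 140 after mating. No treatment or genotype other than breed is named for any goat, and the stages were sampled in different animals after slaughter.

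Milk protein is made up of the caseins, which form micelles, and the whey proteins, which stay soluble when the caseins are removed. In ruminants the main whey proteins are beta-lactoglobulin, encoded by PAEP, and alpha-lactalbumin, encoded by LALBA. Most of the minor whey proteins defend the gland and the young against microbes or bind minerals: lactoferrin (LTF) binds iron, lactoperoxidase (LPO) oxidizes thiocyanate to an antimicrobial product, lysozyme cuts bacterial cell walls, osteopontin (SPP1) is an acidic calcium-binding phosphoprotein, and GLYCAM1 is a mucin-type glycoprotein of milk. Some of them are also made outside the secretory epithelium, osteopontin by macrophages and lactoferrin by neutrophils.

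The values are taken as FPKM, fragment counts normalized for transcript length and sequencing depth, so that genes can be set against each other. The read depth of each library is not given by the table, so the counting error of a value is unknown. Summed over all genes, FPKM came to 940676 to 1157010 in the LL libraries, 601250 to 616268 in the DP libraries and 733277 to 768157 in the LG libraries. The 5 casein and alpha-lactalbumin genes take up much of the LL libraries, with CSN2 (beta-casein) alone at mean FPKM of 94297, 32.1 and 4938 in LL, DP and LG. A median ratio over genes therefore set the scale of each library, and without it the median gene would lie 1.09 higher in DP than in LL on the log2 scale, 0.93 higher in LG than in LL and 0.18 lower in LG than in DP. FPKM are printed as deposited, and log2 fold changes are on the log2(scaled FPKM + 1) scale, which understates the change of genes at low levels.

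The 5 genes followed different courses. PAEP and GLYCAM1 were highest in LL, fell in DP and stood in between in LG. LPO was high in LL and near 0 in both other stages. LTF was low in DP, and whether it was higher in LG than in LL depended on the scale. SPP1 fell from LL to DP and was lower still in LG. The plot of FPKM by library shows these courses.

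**Figure D1:**
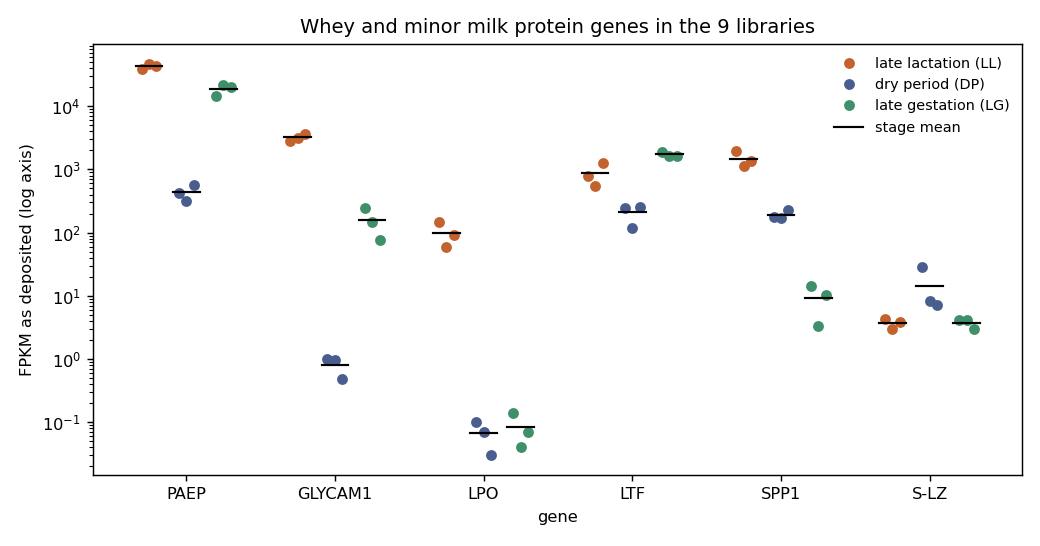
FPKM of each library on a log axis for PAEP, GLYCAM1, LPO, LTF, SPP1 and S-LZ, with 1 point per goat in late lactation (LL), the dry period (DP) and late gestation (LG), and a bar at the mean. PAEP lies between 322 and 565 in DP against 14438 or more in the other stages, LPO is at 0.14 or less in DP and LG, and SPP1 is lowest in LG.

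PAEP (gene ID 100861187, chromosome 11, 102722000 to 102727131, plus strand, assembly ARS1.2) encodes beta-lactoglobulin, a lipocalin that carries small hydrophobic molecules. It was listed at 38926, 47397 and 43526 FPKM in the 3 LL libraries, at 422, 322 and 565 in DP and at 14438, 21408 and 19992 in LG. The 3 stages did not overlap. The means of LL, DP and LG were 43283 ± 4241, 436 ± 122 and 18613 ± 3684 FPKM (SD over 3 goats), so the LL mean was 99.2 times the DP mean and 2.33 times the LG mean. PAEP ranked 8 to 9 among all genes by FPKM in LL, 4 in every LG library and 65 to 142 in DP. On the scaled log2 scale it fell by 8.08 from LL to DP (SE 0.22, limma adjusted p = 2.57e-08) and was lower in LG than in LL (log2 fold change -2.41, SE 0.22, adjusted p = 3.73e-05). LG stood 5.66 above DP (SE 0.22, adjusted p = 1.00e-06).

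The lower level of PAEP in LG than in LL held without scaling (-1.23), but quantile normalization, which replaces values by their rank, turned it to 1.60. PAEP had the higher rank in LG although its FPKM was lower there. With all 23499 genes in the fit and no filter on low values, the fold change stayed at -2.41. Its SE was then 0.94 against 0.22 in the main fit, and the limma adjusted p was 0.103.

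GLYCAM1 (gene ID 100860769, chromosome 5, 25217300 to 25220219, plus strand) had the widest range of the 5 genes between LL and DP. Its FPKM was 2864, 3089 and 3695 in LL, only 0.99, 0.95 and 0.49 in DP, and again 244, 149.5 and 75.2 in LG, with no overlap between stages. It held rank 11 to 13 among all genes in LL and fell to rank 14165 or beyond in every DP library. The LL, DP and LG means were 3216 ± 429.8, 0.81 ± 0.278 and 156 ± 84.8 FPKM (SD over 3 goats). The log2 fold change was -11.88 in DP against LL (SE 0.37, adjusted p = 4.91e-08), on this scale at rank 7 by size of fall among all genes tested. In LG against LL it was -5.68 (SE 0.37, adjusted p = 6.02e-06). From DP to LG it was 6.20 (SE 0.37, adjusted p = 1.22e-05). In LG, where the goats ran from 75.2 to 244 FPKM, GLYCAM1 lay far below PAEP in rank, at 177 to 514.

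LPO (gene ID 100860761, chromosome 19, 8842272 to 8873407, plus strand) encodes the heme peroxidase of milk. It was at 148, 59.3 and 91.2 FPKM in LL, at 0.10, 0.07 and 0.03 in DP and at 0.14, 0.04 and 0.07 in LG. Every LL library stood far above the others, and the DP and LG libraries overlapped. The LL mean was 99.5 ± 45.0 FPKM, and the means of DP and LG, 0.0667 ± 0.0351 and 0.0833 ± 0.0513, lay close together (SD over 3 goats). LPO fell by 7.34 on the log2 scale from LL to DP (SE 0.29, adjusted p = 2.95e-07) and by 7.31 from LL to LG (SE 0.29, adjusted p = 6.61e-07). On the log2(scaled FPKM + 1) scale, the fall to LG was at rank 2 by size in that comparison. LG and DP differed by 0.03 (95% interval -0.63 to 0.69, adjusted p = 0.948), on a scale that compresses values this close to 0. PAEP, LTF and SPP1 met the filter of the test in all 9 libraries, and GLYCAM1 in 2 of the 3 DP libraries and all others. LPO met the filter of 0.5 FPKM in at least 3 libraries through the LL libraries alone, and its values in the other stages lie near the step of 0.01 in which the table is written.

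LTF (gene ID 100861194, chromosome 22, 52976995 to 53007415, plus strand) encodes the iron-binding lactoferrin. It was listed at 786, 552.8 and 1264 FPKM in LL, at 248, 120.3 and 258 in DP and at 1870.2, 1644 and 1661 in LG. As deposited, every LG library stood above every LL library and every DP library below both. After scaling, the LL libraries (999 to 2087) enclosed the LG libraries (1264 to 1562), while DP (83.5 to 180) stayed apart. LTF fell by 3.46 on the log2 scale from LL to DP (SE 0.33, adjusted p = 3.32e-05) and was 3.35 higher in LG than in DP (SE 0.33, adjusted p = 0.000144).

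The difference of LTF between LG and LL depended on the scale. The scaled log2 fold change was -0.11 (SE 0.33, 95% interval -0.85 to 0.64, adjusted p = 0.808), without scaling it was 1.07 (adjusted p = 0.0154), and with quantile normalization it was 0.22. Without the library LL 3, which had the highest LTF of its stage, it was 0.14. In rank, LTF stood at 22, 48 and 27 among all genes in LL and at 24, 26 and 21 in LG.

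SPP1 (gene ID 100860805, chromosome 6, 37214501 to 37221482, minus strand) encodes osteopontin. It was the only one of the 5 genes that was lower in LG than in DP. FPKM was 1940.3, 1146 and 1377 in LL, then 175, 169 and 226 in DP, and 14.25, 3.36 and 10.15 in LG, and the stages did not overlap. SPP1 held rank 15 to 26 among all genes in LL, slipped to 188 to 209 in DP and stood at 3075 to 9562 in LG. The log2 fold change was -4.35 in DP against LL (SE 0.42, adjusted p = 3.37e-05), -8.46 in LG against LL (SE 0.42, adjusted p = 1.79e-06) and -4.11 in LG against DP (SE 0.42, adjusted p = 0.000157). On the log2(scaled FPKM + 1) scale, the fall from LL to LG was the largest in size among all genes called lower in that comparison. With a pseudocount of 0.1 in place of 1, LPO fell further than SPP1 (log2 fold change -10.01 against -8.68).

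S-LZ (gene ID 100860864, chromosome 5, 43897029 to 43902170) carries LYZ as a synonym and was a low-level transcript in this tissue. It was at 4.30, 2.99 and 3.81 FPKM in LL, at 28.1, 8.29 and 7.11 in DP and at 4.16, 4.12 and 2.95 in LG. As deposited, every DP library stood above all LL and LG libraries, and DP replicate 1 was far above the other two. The scaled log2 fold change was 0.26 in DP against LL (SE 0.39, adjusted p = 0.581) and 1.48 without scaling, where it was called. It was -0.95 in LG against LL (SE 0.39, adjusted p = 0.0689) and -1.21 in LG against DP (SE 0.39, adjusted p = 0.0377). The last of these was past the threshold and was lost in 9 settings, and without DP replicate 1 it was -0.67. Of the lysozyme-type genes looked up beside it, LOC102172331, a kidney-type lysozyme by its synonym, and LYZL4 were at 0 in all 9 libraries, and LYZL6 reached 0.04 FPKM at most.

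A gene was called where its adjusted p was under 0.05 and its log2 fold change reached 1 in size. All 5 genes were called lower in DP than in LL, against 8.79% of the 14701 genes tested (13.8% were called higher and 22.6% in either direction). In LG against LL, 4 of the 5 were called lower, against 6.61% of genes tested (10.7% higher, 17.3% in either direction), and LTF was not called. In LG against DP, where 13.3% of genes were called in either direction, PAEP, GLYCAM1 and LTF were called higher, against 6.37% of genes tested, SPP1 was called lower, against 6.88%, and LPO was not called. Since LPO entered the test through LL alone, its calls against LL follow in part from that filter. The comparisons share libraries and are not independent of each other. The 3 libraries of a stage come from separate goats, so these p-values rest on the spread between animals. The fit pools this spread over the 3 stages, so each gene has the same SE in every comparison. For LPO in LG against DP, it therefore also takes in the spread of the LL goats. In whole tissue, fewer secretory cells and less RNA per secretory cell cannot be told apart.

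**Figure D2:**
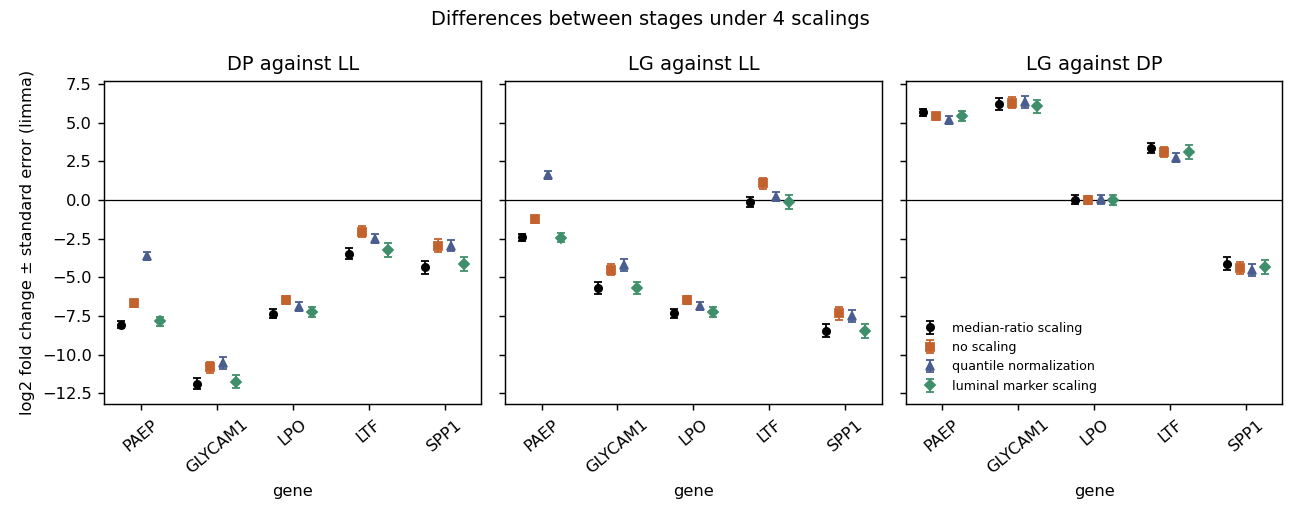
Log2 fold changes of PAEP, GLYCAM1, LPO, LTF and SPP1 in each pair of stages, as points with limma's standard error, under 4 scalings told apart by marker: median ratio, none, quantile and luminal markers. PAEP in LG against LL turns from -2.41 to 1.60 under quantile normalization, and LTF in LG against LL lies between -0.12 and 1.07. The other values keep their side of 0 under these scalings.

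A share does not depend on the scaling factor of a library. The 5 genes together held 3.86, 4.69 and 5.31% of the summed FPKM in LL (mean 4.62 ± 0.728), against 0.138 ± 0.0377% in DP and, in LG, 2.73 ± 0.428% (SD over 3 goats). The stages did not overlap, and the exact two-sided permutation test gave p = 0.1 for each pair, which is the smallest value that 3 against 3 libraries allow (adjusted 0.1 over the 3 pairs). PAEP alone made up 4.08, 0.0721 and 2.48% of the summed FPKM in LL, DP and LG. With the 5 casein and alpha-lactalbumin genes taken out of the sum, the share of the whey and minor milk protein genes in LL became 7.06%, while it was 2.77% in LG.

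The mixture within the 5 genes was unlike in the 3 stages. PAEP made up 88.3 ± 2.07% of their summed FPKM in LL and 90.5 ± 2.87% in LG, but 52.1 ± 2.06% in DP (SD over 3 goats). LTF and SPP1 made up most of the remainder in DP, at 24.5 ± 4.85% and 23.3 ± 3.76%. In LG the remainder was mainly LTF, at 8.67 ± 2.28%, and SPP1 was at 0.0491 ± 0.0358%. GLYCAM1 made up 6.57, 0.106 and 0.822% in LL, DP and LG. The stacked plot of this mixture shows DP apart from the other stages.

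**Figure D3:**
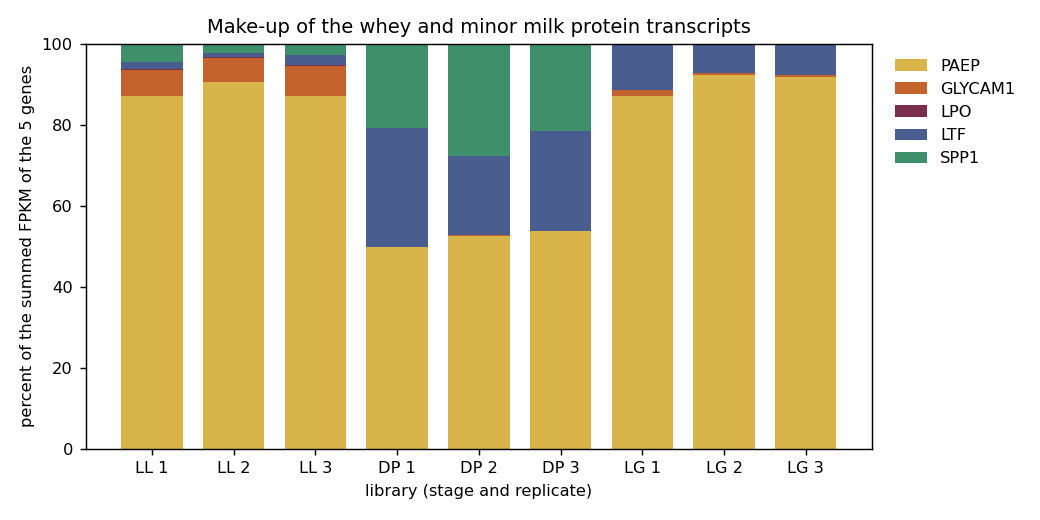
Percent of the summed FPKM of PAEP, GLYCAM1, LPO, LTF and SPP1 held by each gene, as a stacked bar from 0 to 100 for each of the 9 libraries. PAEP takes about 88.3% in LL and 90.5% in LG on average and 52.1% in DP, where LTF and SPP1 take 24.5% and 23.3%.

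A ratio of a pair of genes within a library is likewise free of the scaling. The ratio of GLYCAM1 to PAEP was 7.36, 6.52 and 8.49% in LL, only 0.235, 0.295 and 0.0867% in DP, and 1.69, 0.698 and 0.376% in LG. GLYCAM1 thus stood lowest against PAEP in DP, with no overlap between stages. The ratio of LTF to PAEP was 2.02, 1.17 and 2.90% in LL, but 58.9, 37.3 and 45.7% in DP and still 13.0, 7.68 and 8.31% in LG. The LTF ratio was thus lowest in LL, with no overlap. The ratio of SPP1 to PAEP was 4.98, 2.42 and 3.16% in LL, but 41.5, 52.4 and 39.9% in DP and just 0.0987, 0.0157 and 0.0508% in LG. Its log2 difference was 3.72 in DP against LL and -10.01 in LG against DP. The ratio of LPO to PAEP was 0.125 to 0.380% in LL and 0.0237% or less in every DP and LG library, where LPO lay a few steps of 0.01 FPKM from 0, so its size there is not read. All 12 ratio differences between stages, 3 of which rest on those LPO values, were without overlap. They share PAEP as denominator, which did not overlap between stages either, so they are not separate observations. The share of other gene pairs without overlap is not given here. Each had an exact two-sided permutation p = 0.1 (adjusted 0.1 over the 12), the smallest that the design allows, so none of the 12 can pass 0.05.

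Beta-lactoglobulin was also set against the major milk proteins, with genes chosen after their values were seen. PAEP stood at 39.8, 46.7 and 52.2% of CSN2 in LL, at 1363, 1835 and 1182% in DP and at 375, 354 and 406% in LG. The ratio was 31.3 times as high in DP as in LL and 8.23 times as high in LG as in LL, taken over geometric means (exact two-sided permutation p = 0.1 each, adjusted 0.12 over 6 ratios). PAEP stood higher against beta-casein in each DP and LG library than in any LL library. Against LALBA, PAEP was at 116, 159 and 279% in LL, at 6097, 8390 and 15110% in DP and at 1338, 4372 and 15340% in LG, with overlap between DP and LG (p = 0.5, exact permutation). All 5 major milk protein genes (LALBA, CSN2, CSN1S1, CSN1S2 and CSN3) fell in DP and in LG against LL and rose from DP to LG, with median log2 fold changes of -13.12, -6.81 and 6.31. The medians of all genes tested are set near 0 by the scaling. CSN1S1, CSN1S2 and CSN3 have values tied to each other in the table and are not separate measurements, which was not the case for any of the 5 whey and minor milk protein genes.

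**Figure D4:**
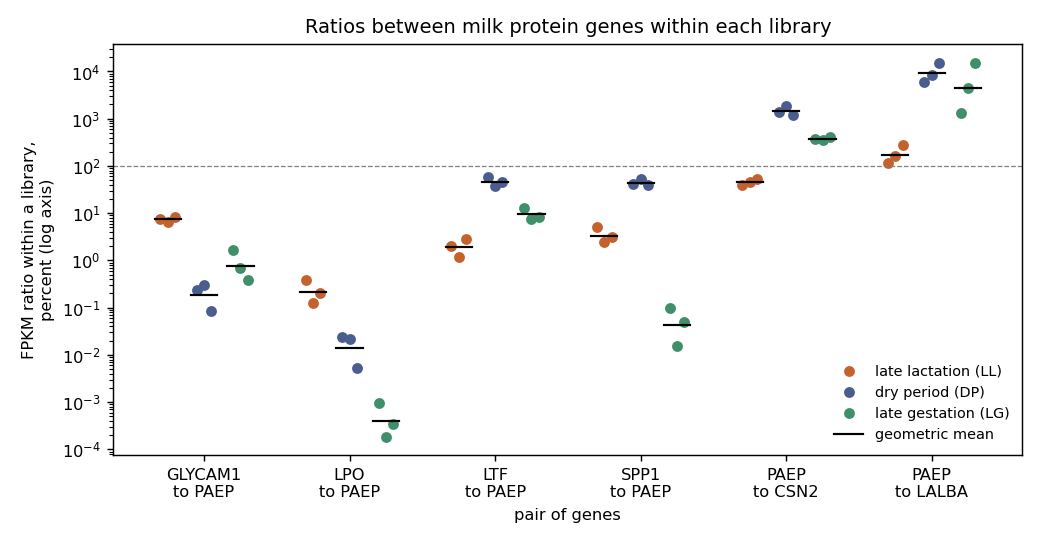
FPKM of GLYCAM1, LPO, LTF and SPP1 as a percent of PAEP, and of PAEP as a percent of CSN2 and LALBA, within each library on a log axis, with 1 point per goat, a bar at the geometric mean of each stage and a dashed line at equal levels. The LTF ratio is lowest in LL and highest in DP, the SPP1 ratio is 39.9 to 52.4% in DP and 0.0987% or less in LG, and PAEP is below CSN2 in LL alone.

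Genes around and related to the 5 were looked at for shared reads. MPO, the myeloperoxidase gene and a relative of LPO, lies 1387 bases from LPO on the opposite strand and was at 0.45 FPKM or less. LTF encloses LOC108633346, an lncRNA on the opposite strand (chromosome 22, 52983681 to 52996727). It was listed at 2.67, 2.06 and 10.3 FPKM in LL, at 4.16, 2.78 and 17.0 in DP and at 0.72, 1.41 and 3.61 in LG, far under LTF itself. Whether the counting used strand is not given in the sources used here, so reads of this pair cannot be told apart. MELTF, a membrane-bound relative of LTF, had means of 21.5, 9.11 and 27.0 FPKM in LL, DP and LG. The bone-matrix relatives of SPP1 were close to 0, with IBSP at 0.03 or less, DMP1 at 0.08 or less and MEPE and DSPP at 0 throughout. LCN2, a lipocalin like PAEP, had means of 6.45, 1.91 and 3.09 FPKM.

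Other genes of milk secretion followed the 5 genes in part. All 8 genes of the milk fat globule membrane were called lower in DP than in LL (median -4.78), among them BTN1A1 (butyrophilin) at -11.03 and FABP3 (a fatty acid carrier) at -9.25. In LG against LL, 6 of the 8 were called lower (median -3.04), with PLIN2, the lipid droplet protein perilipin 2, at 0.10. Without scaling 5 were called lower and 1 higher in that comparison, and XDH, xanthine dehydrogenase, turned its direction from -1.03. From DP to LG 7 of 8 were called higher (median 3.38). Of 7 regulators of secretory differentiation with a row, ELF5, a transcription factor of the alveolar lineage, fell by 4.19 from LL to DP and rose by 3.82 from DP to LG. In the whole list 2 of 7 were called lower in DP than in LL, and 2 higher and 1 lower in LG than in DP. Over all genes tested, 8.79% were called lower in DP against LL, and 6.37% higher and 6.88% lower in LG against DP. Without scaling, 2 regulators were called higher and 1 lower in DP against LL, and their median turned from -0.53 to 0.81. PRLR, the prolactin receptor, had -1.24 in DP against LL, which flips without scaling, and 1.84 in LG against DP. JAK2, a kinase that acts below this receptor, had 0.50 (adjusted p = 0.127) in DP against LL and was called lower in LG than in DP (-1.32, adjusted p = 0.00408), and STAT5B, a transcription factor that it activates, had 0.23 between the same stages (DP against LL, adjusted p = 0.268). In LG against LL, where PAEP, GLYCAM1, LPO and SPP1 were called lower, ELF5 had -0.37 (limma adjusted p = 0.242) and PRLR 0.60 (adjusted p = 0.0452), both under the size a call needed. This depended on the scale. Without scaling, 3 of the 7 regulators were called higher in LG than in LL, and their median turned from -0.11 to 0.95.

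Markers of the cell types of the gland were set beside the 5 genes. The summed FPKM of 8 luminal epithelial markers, keratins and junction proteins, ran from 204 to 275 in LL, from 449.95 to 762 in DP and from 512 to 641 in LG. After scaling it ran from 409.7 to 494 in LL, from 294 to 529 in DP and from 428 to 488 in LG, with overlap between all stages. Single markers differed, with 0 of 8 called in DP against LL and 1 called higher in LG than in LL (CLDN7, 1.13). In LG against DP, CLDN3 and CLDN7 were called higher (1.34 and 1.74). Without scaling, 4 were called higher in DP and 6 in LG than in LL. Scaling the libraries by the 8 luminal markers was an alternative added after the data were seen. It left PAEP at -7.85 in DP against LL and -2.42 in LG against LL, and LTF at -0.12 in LG against LL. Macrophage markers, of which 9 had a row, had sums of 51.0 to 63.1 FPKM in LL, of 339 to 408 in DP and of 131 to 139 in LG, and 6 of 8 tested were called higher in DP than in LL and 8 of 8 lower in LG than in DP. After scaling the sums were 92.2 to 127, 235 to 283 and 102 to 116 in LL, DP and LG. Macrophages also make osteopontin, and SPP1 was higher in LL than in DP while these markers were lower, and both were lower in LG than in DP. The part of macrophages in the SPP1 values was not tested. The summed fibroblast markers ran from 105 to 196 FPKM in LL, from 768 to 3443 in DP and from 624 to 1177 in LG, with 5 of 6 called higher in DP than in LL (median 2.002). All 5 T cell markers were called higher in DP than in LL (median 1.64), with sums of 2.76 to 3.69 FPKM in LL and of 25.9 to 84.2 in DP. Of the other lists, basal and myoepithelial markers had 1 of 7 tested called higher in DP than in LL, and endothelial markers 0 of 4. Adipocyte markers had 0 of 3 and B lineage markers 0 of 1. Without scaling these counts were 5, 4, 1 and 0. The 5 whey and minor milk protein genes were called lower in DP, where most macrophage and fibroblast markers and all T cell markers were called higher. The part of this in their values was not tested.

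Neutrophil markers, 7 with a row, had sums of 5.27 to 14.9 FPKM in LL, of 15.9 to 60.1 in DP and of 6.96 to 14.8 in LG. Neutrophils also hold lactoferrin, and LTF as deposited was lowest in DP, where every sum lay above those of LL and LG. After scaling, the sums of LL (9.53 to 29.9) and DP (11.03 to 39.3) overlapped, and LG had 5.51 to 12.4. Of the 6 tested, 0 were called higher and 1 lower (CXCR1, -1.31) in DP than in LL. In LG 1 was called higher and 3 lower than in LL, and 1 higher and 1 lower than in DP. Without scaling 2 were called higher and 0 lower in DP than in LL, and 1 higher and 1 lower in LG than in LL. CXCR1 and CXCR2 were among those called lower in LG than in LL (-1.64 and -1.52). CSF3R, a growth factor receptor of these cells, was called higher in LG than in DP (1.26) and than in LL (1.88), as LTF was against DP. S100A9, a calcium-binding protein, was called lower in both (-1.95 and -1.35) and reached 34.3 FPKM in DP replicate 1. ELANE was at 1.64 FPKM or less and MPO at 0.45 or less in every library. The part of neutrophils in the LTF values was not tested. The plot of fold changes by list sets these lists beside the 5 genes.

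**Figure D5:**
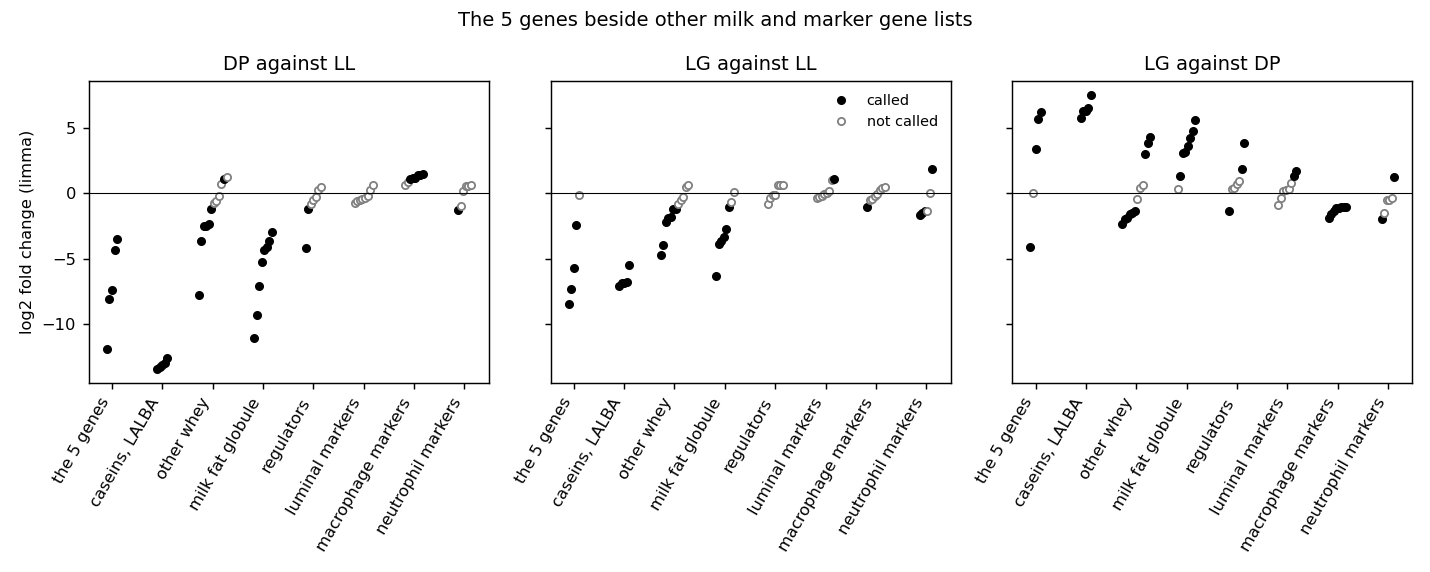
Log2 fold change of each gene, on the log2(scaled FPKM + 1) scale, for the 5 genes and 7 other lists in the 3 pairs of stages, with filled points for called genes and open points for genes not called. The caseins and LALBA lie furthest from 0 in DP against LL, around a median of -13.12, and 6 of 8 macrophage markers tested are called higher there.

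Across the 9 libraries, which cluster by stage, the genes most like each of the 5 were named by Pearson's r on the scaled log2 scale, as a description without a test. PAEP was closest to SLC6A8 (r = 0.995), a creatine transporter with means of 19.0, 5.84 and 23.6 FPKM in LL, DP and LG. GLYCAM1 was closest to LALBA (0.994), CMTM8 (0.994) and CSN1S1 (0.992). LPO was closest to C5 (0.999), SDSL (0.998) and MEP1B (0.998), all at 2.74 FPKM or more on average in LL and 0.10 or less in DP and LG. LTF was closest to CDKN2AIPNL (0.988), which ran from 12.2 in LL to 19.1 in DP and 27.4 in LG as deposited. SPP1 was closest to TBXAS1 (0.987), thromboxane synthase, with means of 6.17, 6.03 and 2.08 FPKM. Among the members, PAEP and GLYCAM1 had r = 0.970, PAEP and LTF 0.940, PAEP and LPO 0.726, PAEP and SPP1 0.300, and LTF and SPP1 0.0515.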

How the data were processed

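Total RNA was extracted from mammary tissue of 9 goats, made into libraries with a TruSeq RNA kit and sequenced. The deposited table holds normalized values per gene and library that are taken as FPKM, although the table does not name its unit. For its full set of samples, which takes in other datasets, the study trimmed reads with Trimmomatic, aligned them with HISAT2 and quantified transcripts with StringTie. The submitters' notes on the deposited values name HTSeq, with no role given, so which tool gave these values is not known here. FPKM does not keep the read counts. Tables of other datasets were not used here. Of 23499 genes, 23465 matched the RefSeq table of assembly ARS1.2 by gene ID, all with the same start and end. Sequences were not used here.

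Libraries were scaled by the median ratio over 15905 genes. The 14701 genes that reached 0.5 FPKM in 3 or more libraries were fitted as log2(scaled FPKM + 1) over all 9 libraries with limma 3.58.1 (R 4.3.3, eBayes with trend), and p-values were adjusted by Benjamini-Hochberg over these genes. A gene was called where its adjusted p was under 0.05 and its log2 fold change reached 1 in size. The pseudocount was 1. Shares and ratios were tested by exact two-sided permutation in Python 3.11.15 with scipy 1.17.1. The limma fit and its calls were tested on simulated log2 values for DP against LL, which left out the scaling and the filter. Members were always named, and the nearest patterns were the 3 highest correlations per gene. List examples were planned as the 2 largest fold changes in each direction. Some of these were not named, and some other genes of the lists were. Members and lists were chosen with earlier results of these data known. Replicate numbers were checked for pairing. Alternatives changed scaling, pseudocount, filter, samples, block and left out each library.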

Additional observations from a re-analysis of the deposited data

How the results depend on the processing

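GLYCAM1 and SPP1 kept their direction and their side of the threshold in all 3 comparisons under every alternative tried. PAEP in LG against LL became 1.60 with quantile normalization and lost its call with no filter on low values. There its fold change stayed at -2.41, with an SE of 0.94 against 0.22 in the main fit (limma adjusted p = 0.103). What widened the SE was not tested. LTF in LG against LL became 1.07 without scaling and 0.22 with quantile normalization, and ranged from -0.39 to 0.14 when each library was left out. LPO in LG against DP ranged from -0.0027 to 0.054, below 0 without LG replicate 1. S-LZ in DP against LL ranged from -0.28 without DP replicate 1 to 0.58, and in LG against LL it was 0.012 without scaling. Counts of calls in DP against LL, LG against LL and LG against DP were 3321, 2544 and 1948. They were 8359, 7383 and 5112 by adjusted p alone. Without scaling they were 8348, 7043 and 2292, of which 95.6%, 95.1% and 31.2% were higher, against 61.1%, 61.8% and 48.1%, and with luminal marker scaling 71.9%, 61.0% and 31.5% were higher. With a pseudocount of 0.1, LG against LL had 3912. Left-out libraries gave 3048 to 3454, 2435 to 2642 and 1775 to 2066 calls. The share of the 5 genes in LL was 6.72% without genes whose values were tied to those of a neighbour, and 7.06% without the other major milk protein genes. Correlations of same-numbered libraries ran from -0.106 to 0.201, and those of differently numbered libraries from -0.223 to 0.072. The highest were of same-numbered libraries, DP 1 with LG 1 (0.201), DP 3 with LG 3 (0.156) and LL 1 with DP 1 (0.151). What lies behind this was not tested. The labels give no pairing, so the numbers were not taken as pairs in the main fit. A replicate block gave 3340, 2564 and 1986 calls and changed no call of the 5 genes. Depth is unknown, which limits values near 0, such as LPO outside LL.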

Other observations

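Minor whey protein genes outside the 5 differed among themselves. Of 18 such genes asked for, 13 had a row and 12 were tested. In DP against LL 6 were called lower and 1 higher, in LG against LL 7 were called lower, and in LG against DP 3 were called higher and 6 lower. Over all genes tested, 8.79% and 13.8% were called lower and higher in DP against LL, 6.61% lower in LG against LL, and 6.37% higher and 6.88% lower in LG against DP. Without scaling, 4 were called lower and 3 higher in DP against LL, where the median turned from -0.99 to 0.41 and B2M (beta-2-microglobulin) changed direction, and 3 were called lower and 2 higher in LG against LL. PIGR, the receptor that carries immunoglobulin A into milk, was at 492, 398 and 446 FPKM in LL, at 18.4, 2.23 and 0.91 in DP and at 117, 52.5 and 44.7 in LG. JCHAIN, which joins immunoglobulin A units, was at 414, 272 and 114 in LL, at 161, 195 and 54.1 in DP and at 26.7, 12.5 and 21.2 in LG. PIGR rose by 3.82 on the log2 scale from DP to LG (limma adjusted p = 0.00235), whereas JCHAIN fell by 2.33 (adjusted p = 0.0136). PGLYRP1, a peptidoglycan-binding defence protein, was at 17.5, 113 and 53.9 in LL, at 17.1, 7.94 and 4.82 in DP and at 168, 129.7 and 226 in LG, with a log2 fold change of 4.29 in LG against DP (adjusted p = 0.000547) and 0.65 in LG against LL (adjusted p = 0.371).

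LOC108637095, a protein-coding gene 15551 bases upstream of PAEP on the same strand (chromosome 11, 102701738 to 102706448), was at 17.8, 17.3 and 142 FPKM in LL and listed at 0 in all DP and LG libraries. It was named after its values were seen.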
